A study of Mus musculus with 4 samples.

Results

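The molecular clock of mammalian cells is timed in part by kinases that mark clock proteins and by ubiquitin ligases that have the marked proteins degraded. Casein kinases 1 delta and epsilon phosphorylate PER proteins, and the F-box protein beta-TrCP then recruits phosphorylated PER to an SCF ubiquitin ligase. Casein kinase 2 (CK2), a holoenzyme of catalytic and regulatory subunits, phosphorylates BMAL1 and PER2, and glycogen synthase kinase 3 beta phosphorylates several clock proteins as well as beta-catenin. The transcripts of 7 such genes were described here: *Csnk1d* and *Csnk1e* (casein kinase 1), *Csnk2a1*, *Csnk2a2* and *Csnk2b* (CK2), *Gsk3b*, and *Btrc*, which encodes beta-TrCP. They were taken by gene name, as all probes that the array annotation assigns to them, which gave 18 of 39429 probes and 7 of 30175 gene names.

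The cells were NIH-3T3:Per2-Luc, a mouse embryonic fibroblast line that carries a luciferase reporter of *Per2*. A cOS-pulse (critical oxidative stress, 5 mM H2O2 for 10 min) was given, and RNA was taken 4 h, 20 h and 32 h later, while control cells received 0 mM H2O2 and are labelled 4 h. According to the paper, the control cells were given fresh medium, which it calls a comparably weak resetting stimulus. Each of these 4 conditions was measured on 1 single-colour Agilent array, without replicates, so no difference was tested, and precision is limited by the number of arrays. Every time point was set against the same control array, and untreated cells at 20 h or 32 h were not analysed here.

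A level below is the log2 signal of a probe minus the 75th percentile of all probes on its array, so a probe at 0 is as bright as that percentile. A difference between arrays is given as a log2 ratio with the error that the scanner software assigns to the spots, which covers neither cultures nor arrays. This error was about 0.20 for a bright probe. The flag for signals well above background was set for 53.4% of all probes in the control, 59.1% at 4 h, 55.2% at 20 h and 52.7% at 32 h. Of the 18 probes, 17 were well above background in the control, 18 at 4 h, 17 at 20 h and 17 at 32 h, and each probe had 1 spot per array.

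The fibroblast label was checked against marker genes. All 6 probes of *Col1a1*, *Col1a2*, *Vim*, *Fn1*, *Pdgfrb* and *Thy1* were well above background on all 4 arrays. Their summed signal, in units of the 75th percentile, was 367 in the control, 273 at 4 h, 311 at 20 h and 316 at 32 h. *Pdgfrb* was at least 2-fold below the control at 4 h (-1.35), and *Thy1* (-1.39) and *Col1a1* (-1.06) were so at 20 h. The call of *Col1a1* was lost with the median, with either spike-in set and without scaling (to -0.72), and the median and spike-in scalings gave 3 lower probes at 4 h in place of 1. Of the genes of other cell types, *Ptprc* (leukocytes), *Epcam* and *Cdh1* (epithelium) were not well above background on any array. The summed signal of all 7 probes of other cell types, which include *Cd68*, *Cdh5* and *Pecam1*, was 0.581 in the control. It was 2.13 at 4 h, 0.693 at 20 h and 0.671 at 32 h. *Cd68*, a lysosomal protein known as a macrophage marker, had 1 probe with a log2 ratio of 2.08 ± 0.21 at 4 h. The endothelial cadherin *Cdh5* had 1.87 ± 0.30 and *Pecam1* 0.71 ± 0.27 at 4 h. The part of these shifts in the ratios of the clock kinases was not tested.

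At 4 h after cOS-pulse, 3 of the 18 probes exceeded the control by 2-fold or more, 1 of *Csnk1e* and 2 of *Csnk2a2*, and 1 probe of *Btrc* was lower by at least that much. Over all 23813 probes with a ratio at 4 h, 11.2% were at least 2-fold higher and 8.18% at least 2-fold lower. The 4 calls among 18 are thus close to the share over the whole array. The median log2 ratio of the 17 probes measured on both arrays was 0.39, against 0.17 over all 20392 such probes. Of the 17, 9 lay above the median of all probes. With the main scaling 11 of the 17 ratios were above 0, against 60.2% of all such probes. Scaling by the spike-in controls brought the median of the 17 to -0.01 and that of all probes to -0.23. With it 8 of the 17 ratios were above 0. The distance between the 2 medians was 0.22 with the 75th percentile and with the spike-in controls, and 0.19 with quantile normalization.

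At the later times no probe of the 7 genes was 2-fold away from the control. At 20 h the 17 log2 ratios ran from -0.54 to 0.35 with a median of 0.02, and 10 of them were no larger than their spot error. Over all probes, 1.37% were at least 2-fold higher and 3.35% at least 2-fold lower at 20 h. At 32 h the ratios ran from -0.23 to 0.26 with a median of 0.06, 14 of 17 were within their spot error, and the shares over all probes were 2.07% higher and 2.59% lower. Between 20 h and 32 h the ratios ran from -0.51 to 0.19, again with none past 2-fold, where 0.901% of all probes were higher and 1.93% lower at 20 h.

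**Figure D1:**
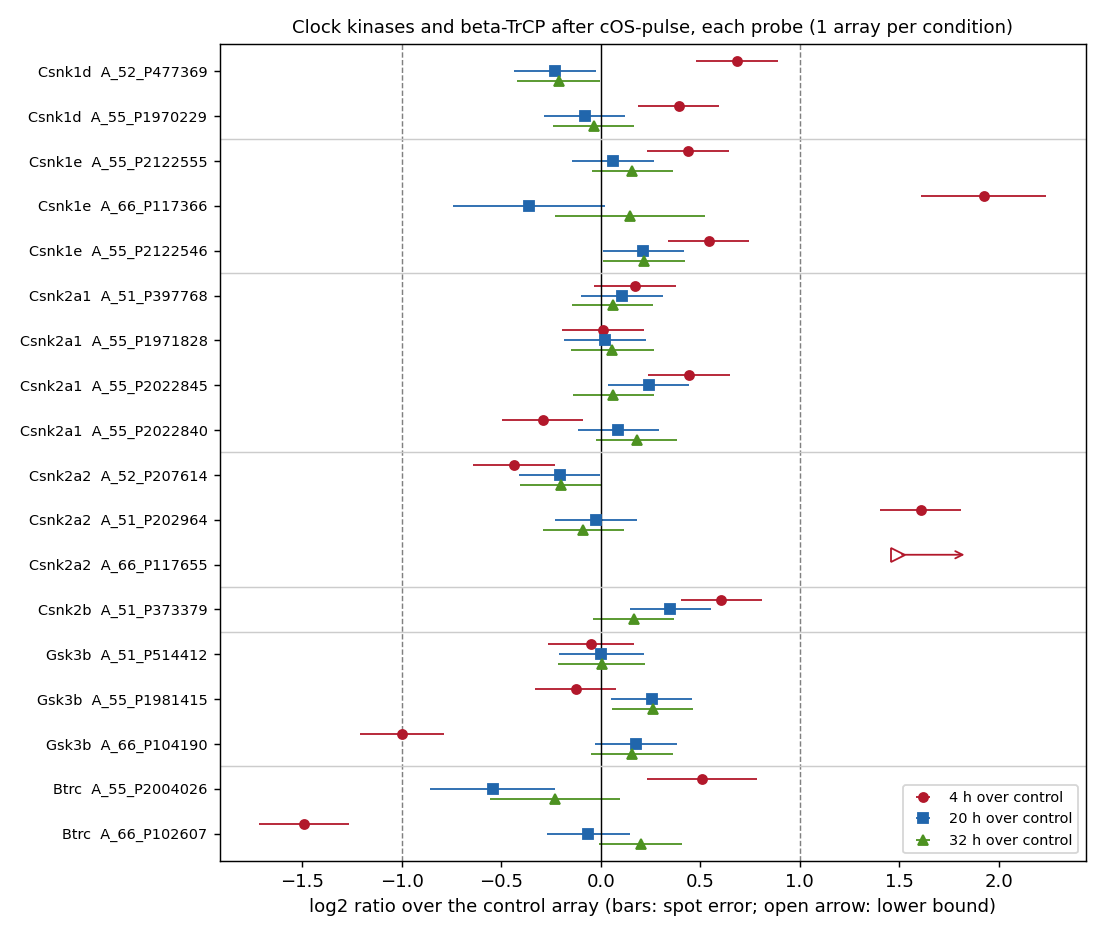
Log2 ratio over the control array for each of the 18 probes of the 7 genes (rows, grouped by gene and ordered 5' to 3') at 4 h (circles), 20 h (squares) and 32 h (triangles), with 1 array per condition. Horizontal bars are the spot error, dashed lines mark 2-fold, and the open arrow is a lower bound; the 4 h values run from -1.49 to 1.92, while the 20 h and 32 h values stay between -0.54 and 0.35.

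The casein kinase 1 genes had positive ratios at 4 h on all of their probes, except that 1 *Csnk1d* probe came to lie at the control with spike-in scaling. Over all measured probes 60.2% were positive at 4 h with the main scaling, with a median of 0.17. *Csnk1d*, the delta isoform, was followed by 2 probes on chromosome 11 that lie 7347 bases apart. The upstream probe, A_52_P477369, had levels of -0.30 in the control, 0.39 at 4 h, -0.53 at 20 h and -0.51 at 32 h. It was highest at 4 h (log2 ratio 0.68 ± 0.21), and the levels at 20 h and 32 h were within the spot error of each other. They lay slightly under the control (-0.23 ± 0.21 and -0.21 ± 0.21), though without scaling the 20 h ratio was 0.10. The downstream probe, A_55_P1970229, had levels of 4.41, 4.81, 4.33 and 4.38 in the same order. Its 4 h ratio of 0.39 ± 0.20 turned to -0.01 with spike-in scaling, and its levels in the control and at the later times could not be told apart by the spot error.

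*Csnk1e*, the epsilon isoform, had 3 probes on chromosome 15. A_55_P2122555 had levels of 0.83 in the control, 1.27 at 4 h, 0.89 at 20 h and 0.99 at 32 h, and A_55_P2122546, 7025 bases downstream, had 0.955, 1.498, 1.169 and 1.173. Their 4 h ratios were 0.44 ± 0.20 and 0.54 ± 0.20, and both stayed above 0 under each of the 6 other scalings, though with spike-in scaling the first was only 0.04. Both probes were highest at 4 h with the main scaling, but under 4 of the 6 others the 20 h ratio exceeded that at 4 h (0.26 and 0.41 at 20 h with the spike-in controls, against 0.04 and 0.14). Their levels at 20 h and 32 h differed by less than the spot error.

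The remaining *Csnk1e* probe, A_66_P117366, lies between these (chr15:79253953-79254012, mm9, minus strand) and was drawn from a cDNA clone rather than from the RefSeq transcript. It had levels of -4.24 in the control, -2.31 at 4 h, -4.60 at 20 h and -4.09 at 32 h. Its 4 h ratio of 1.92 ± 0.31, or 3.79-fold, was 1.48 above that of the upstream probe of the same gene, with a combined spot error of 0.37. The signal was dim on every array, and normexp background correction lowered the 4 h ratio to 1.10. Among the 19697 probes well above background on all 4 arrays, the genes most like it by the distance between centred levels over the 4 arrays were *Gm10516* (distance 0.02, chromosome 1), *Amigo3* (0.19, chromosome 9) and *Kif5a* (0.23, chromosome 10). Their 4 h log2 ratios were 1.92, 2.09 and 2.22.

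CK2 was covered by 8 probes. *Csnk2b*, the regulatory beta subunit, had a single probe, A_51_P373379 (chr17:35253177-35253236, mm9, minus strand). Its levels were 3.37 in the control, 3.98 at 4 h, 3.72 at 20 h and 3.54 at 32 h. The step from 4 h to 20 h exceeded the spot error, and the steps from 20 h to 32 h and from 32 h to the control did not. The highest array depends on the scaling, since 20 h lay above 4 h under 4 of the 6 other scalings (ratios of 0.55 and 0.21 with the spike-in controls). The ratio was 0.61 ± 0.20 at 4 h, 0.35 ± 0.20 at 20 h and 0.16 ± 0.20 at 32 h, and it remained positive under each of the 6 other scalings, from 0.21 to 0.48 at 4 h.

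The catalytic alpha subunit, *Csnk2a1*, had 4 probes along 9080 bases of chromosome 2, and none reached 2-fold at any time. The first, A_51_P397768, spans an exon junction, since its 60 bases cover 1423 bases of the genome (chr2:152098418-152099840, mm9, plus strand). It had levels of -0.62 in the control, -0.44 at 4 h, -0.51 at 20 h and -0.56 at 32 h. The second, A_55_P1971828 (chr2:152099832-152099891), had -0.97, -0.96, -0.95 and -0.92. Neither probe had neighbouring levels further apart than the spot error. The 4 h ratios were 0.17 ± 0.21 and 0.01 ± 0.21, and they turned negative under 4 and 6 of the 6 other scalings, respectively. These probes overlap by 9 bases and so read adjoining stretches of the transcript, and their 4 h ratios differed by -0.16, less than the combined error of 0.29. They are shown with the shared bases in capitals, the first whole and the second by its first 30 bases:
Csnk2a1 A_51_P397768: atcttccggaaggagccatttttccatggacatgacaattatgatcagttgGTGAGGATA
Csnk2a1 A_55_P1971828: GTGAGGATAgccaaggttctgggaacagaa
The array annotation lists a further transcript for both of them, and RefSeq holds 2 pseudogenes named after *Csnk2a1*, so a share of signal from such copies was not separated.

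The other 2 *Csnk2a1* probes lie downstream and are 1491 bases apart. A_55_P2022845 (chr2:152106007-152106066) had levels of 2.17 in the control, 2.61 at 4 h, 2.41 at 20 h and 2.23 at 32 h. A_55_P2022840 (chr2:152107498-152107557) had 1.94, 1.65, 2.03 and 2.12. The 4 h ratio of the first was 0.44 ± 0.20, its highest, but 4 of the 6 other scalings put 20 h above 4 h (0.44 against 0.04 with the spike-in controls). The second was at its lowest at 4 h (-0.29 ± 0.20, and lower under each of the 6 other scalings). The 4 h ratio of the downstream probe was 0.74 under that of its neighbour, with a combined error of 0.29. At 20 h and 32 h both probes were within 0.25 of the control. Neighbouring levels of A_55_P2022845 differed by less than the spot error, and for A_55_P2022840 only the last step, down to 4 h, exceeded it.

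The other catalytic subunit, alpha prime, is encoded by *Csnk2a2* on the minus strand of chromosome 8, and its probes lay far apart at 4 h. A_51_P202964 (chr8:97972108-97972167, mm9) had levels of 1.28 in the control, 2.89 at 4 h, 1.26 at 20 h and 1.20 at 32 h. Its 4 h ratio was 1.61 ± 0.20, or 3.05-fold, and at least 1.21 under the other scalings, while the remaining levels lay within 0.09 of each other. A_66_P117655 (chr8:97970047-97970106), 2061 bases further downstream, was well above background at 4 h only, with a level of -3.26. It was therefore at least 2.82-fold higher at 4 h, a bound taken over the lowest level well above background in the control, which was -4.76. With normexp background correction this bound fell short of 2-fold. The upstream probe, A_52_P207614 (chr8:97973573-97973632), comes from a cDNA clone and went the other way. It had levels of 0.57, 0.14, 0.36 and 0.37, with a 4 h ratio of -0.44 ± 0.20 that was negative under every other scaling. Between it and A_51_P202964, 1465 bases away, the 4 h ratios differed by 2.04 with a combined error of 0.29.

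*Gsk3b*, on the plus strand of chromosome 16, had 3 probes spread over 58107 bases. A_51_P514412 spans an exon junction (chr16:38187987-38191632, mm9) and had levels of -1.80 in the control, -1.85 at 4 h, -1.80 at 20 h and -1.80 at 32 h, which cannot be ranked by the spot error. A_55_P1981415 (chr16:38241177-38241236) had 1.97, 1.84, 2.22 and 2.23. A_66_P104190 (chr16:38246094-38246153), the probe furthest downstream, had -1.05, -2.05, -0.87 and -0.89. The 4 h ratios were -0.05 ± 0.22, -0.13 ± 0.20 and -0.998 ± 0.21 from the upstream to the downstream probe. The last was 1.998-fold lower, just short of the 2-fold threshold, and passed it under each of the 6 other scalings, at -1.09 to -1.40, while normexp background correction brought it to -0.82. At 20 h and 32 h the downstream probe was slightly over the control (0.18 ± 0.21 and 0.16 ± 0.21), and so was the middle probe (0.26 ± 0.20 at both times). With the main scaling, the 4 h ratios of the other 2 probes were within the spot error, whereas spike-in scaling gave -0.45, -0.53 and -1.40 in the same order. The downstream probe lay 0.87 below its neighbour, 4917 bases upstream, with a combined error of 0.29, and this distance does not depend on a constant per array.

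*Btrc*, the only ubiquitin ligase gene of the 7, was read by 2 probes that lie 3283 bases apart on the plus strand of chromosome 19 and went opposite ways. The upstream probe, A_55_P2004026 (chr19:45604418-45604477, mm9), had levels of -3.60 in the control, -3.09 at 4 h, -4.14 at 20 h and -3.82 at 32 h. It was highest at 4 h (0.51 ± 0.28) and lowest at 20 h (-0.54 ± 0.31), and kept both signs under each of the 6 other scalings. Its levels at 20 h and 32 h were within the spot error of each other. With median, quantile, spike-in or no scaling the 4 h ratio was within its error, down to 0.11. The downstream probe, A_66_P102607 (chr19:45607701-45607760), had -1.48, -2.96, -1.54 and -1.28. It was lowest at 4 h (-1.49 ± 0.23, or 2.81-fold lower), and its other 3 levels did not differ from their neighbours in rank by more than the spot error. At 4 h the ratios lay 1.998 apart, the downstream one lower, with a combined error of 0.36. Normexp background correction brought the downstream ratio to -1.002.

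The probes of *Btrc* and *Csnk2a2* are identified here by their first 30 bases, 5′ to 3′, because the symbol of the gene alone does not tell the direction:
Btrc A_55_P2004026 (higher at 4 h): ataaaaagcattgtgcttcatcttaaatca
Btrc A_66_P102607 (lower at 4 h): atgttgtagtggtgtgtagtcaatgtacca
Csnk2a2 A_52_P207614 (lower at 4 h): ccaatgtgctacaaatgtgacacttgaccc
Csnk2a2 A_51_P202964 (higher at 4 h): caccgtaaatcagacctcacttccgaatgt
Csnk2a2 A_66_P117655 (at 4 h only): gcttgtagttatcaagaggtaatagttgtt

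Disagreement between probes of 1 gene was counted for genes with at least 2 probes measured on both arrays. At 4 h the probes lay at least 2-fold apart for 3 of the 6 such genes here, *Btrc*, *Csnk1e* and *Csnk2a2*, and for 12% of 3688 such genes on the array. With normexp background correction, an alternative added after the data were seen, the count was 2, as *Csnk1e* dropped out. The median spread was 1.22 for the 6 genes and 0.25 for all 3688. At 20 h none of the 6 had probes 2-fold apart, against 2.16% of 3758 genes, and at 32 h again none, against 2% of 3650. The median spread at those times was 0.24 and 0.15, against 0.16 and 0.14 for all genes. The 6 genes had 2 to 4 measured probes each, and a gene with more probes has more chances of a wide spread.

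By position, the 3′-most measured probe had the lower 4 h ratio in 4 of the 6 genes, *Btrc* (-1.998), *Gsk3b* (-0.95), *Csnk2a1* (-0.46) and *Csnk1d* (-0.29), and the higher one in *Csnk2a2* (2.04) and *Csnk1e* (0.10). The difference for *Csnk1d* was about as large as its combined error of 0.29, and that for *Csnk1e* was smaller than its own. Over 3625 genes whose probes lie on 1 strand of 1 chromosome, the 3′-most probe was lower in 57.4%, with a median difference of -0.04. At 20 h it was lower in 1 of the 6 genes and in 48.5% of all genes, and at 32 h in none of the 6 and in 41.7%. At both times the difference was smaller than the combined error for each of the 6 except *Btrc*.

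**Figure D2:**
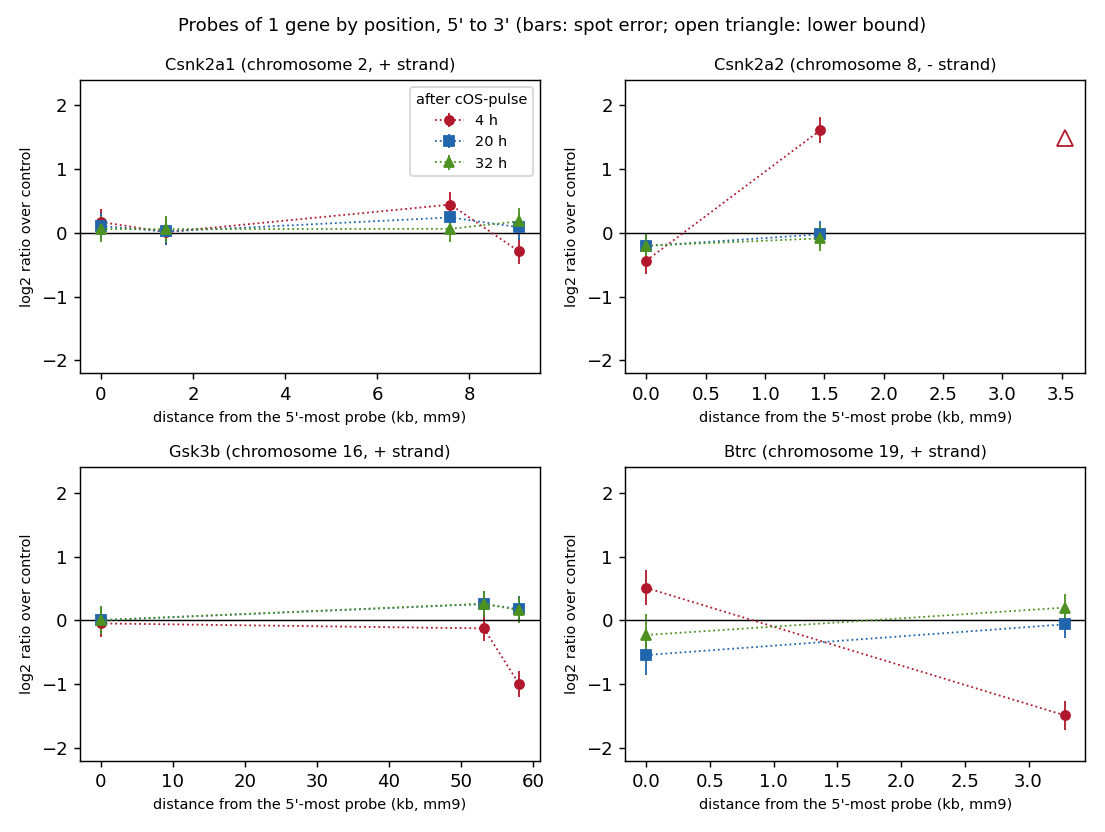
Log2 ratio over the control (vertical axes) against the distance of each probe from the 5'-most probe of its gene (horizontal axes, kb in mm9) for Csnk2a1, Csnk2a2, Gsk3b and Btrc, at 4 h (circles), 20 h (squares) and 32 h (triangles). Bars are the spot error, the open triangle is a lower bound, and dotted lines only join probes of 1 array; at 4 h the last probe of Btrc and of Gsk3b drops to -1.49 and -0.998, while at 20 h and 32 h the probes of these genes lie between -0.54 and 0.26.

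Probes were also searched for AATAAA and ATTAAA on the strand of the transcript, the hexamers that commonly precede a poly(A) site. They occur in 4 of the 18 probes (22.2%) and in 16.7% of all probes on the array, and a match does not show that a site is used. The matches are given in stretches of 30 bases with the hexamer in capitals:
Gsk3b A_66_P104190: ggtcatgtgactgctgcttcAATAAAgaca
Gsk3b A_51_P514412: tgatacagctgtATTAAAactctgtgactt
Csnk2a1 A_55_P2022845: aattctttggtgtaAATAAAcgtttggttt
Csnk2b A_51_P373379: tttttagtttaaATTAAAggaattgttact
In *Gsk3b* the downstream match lies in the probe that was lower at 4 h. In *Csnk2a1* it lies in the upstream probe of the pair that parted at 4 h, 1491 bases before the probe with the negative ratio. The match in A_51_P514412 is in a probe across an exon junction. Whether a probe lies in coding or untranslated sequence was not assigned.

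Promoters of 5 of the 7 genes, *Csnk1e*, *Csnk2a1*, *Csnk2a2*, *Csnk2b* and *Gsk3b*, were read from RefSeq (GRCm38.p6, 250 bases before to 50 after each start, 10 windows in all). They were searched on both strands for the E-box CACGTG, bound by CLOCK and BMAL1, for the heat shock element core GAANNTTC and for the antioxidant element core TGACNNNGC. The E-box and the heat shock core were in none of the 10 windows, against 7.15% and 7.86% of all 32851 windows. The antioxidant core was in 4 of the 10 windows, from 3 genes, against 12.4% of all windows. The windows of *Csnk1e* overlap and share 1 match. The matches, on the minus strand of each window, are shown in capitals as read on the strand of the gene:
Csnk1e (chr15:79442201-79442230, minus strand): cacccagggtgGCAGCGTCAgaacacgctc
Csnk2a1 (chr2:152226763-152226792, plus strand): gcgggggctgcGCTAAGTCAgagcctccga
Csnk2b (chr17:35122250-35122279, minus strand): ctggggaagctGCATTGTCActtctgtacc

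Genes that act beside the 7 were taken from lists of kinases, phosphatases, ligase parts and substrates. Of the other casein kinase 1 and GSK3 genes (5 genes, 10 probes), none had a probe 2-fold from the control at any time, and the median 4 h ratio was 0.28, or -0.12 with spike-in scaling. *Gsk3a*, the paralog of *Gsk3b*, had a 4 h ratio of 0.11 ± 0.20 that turned negative with spike-in scaling. The list of other kinases with clock proteins as substrates (11 genes, 22 probes) also held the scaffold *Gnb2l1*. Of its 19 probes with a ratio at 4 h, 2 were at least 2-fold higher, against 11.2% of all probes. Both were of *Dyrk1a* (1.41 ± 0.20 and 1.45 ± 0.21), a kinase of CRY2. The single probe at least 2-fold lower, against 8.18% of all probes, was of *Prkca*, protein kinase C alpha, at -1.70 ± 0.20. The second *Prkca* probe was at -0.76 ± 0.20. In this list 11 of 17 measured probes were below the control at 4 h, against 8120 of 20392 over all probes. The median was -0.20, against 0.17 over all probes. With spike-in scaling the median of the list was -0.60 and that of all probes -0.23. Of the 18 probes of the list with a ratio under that scaling, 5 were at least 2-fold lower. The share of all probes past 2-fold was counted with the main scaling only. *Gnb2l1* (RACK1), a scaffold for protein kinase C, had 0.42 ± 0.20, or 0.025 with spike-in scaling.

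Of the phosphatase catalytic subunits (6 genes, 10 probes) none passed 2-fold, with a median of 0.28 that spike-in scaling brought to -0.12, and *Ppp1ca* had a 4 h ratio of -0.06 ± 0.20. Of the other ubiquitin ligase genes (14 genes, 23 probes), 3 of 18 probes with a ratio were at least 2-fold higher at 4 h. None was lower, and over all probes 11.2% were higher and 8.18% lower by that much. The 3 probes belonged to *Mdm2* (1.61 ± 0.20), the ligase of p53, *Ube3a* (1.31 ± 0.20) and *Siah2* (1.17 ± 0.21). In this list 16 of 18 measured probes were above the control, against 60.2% of all probes, both with the main scaling. With median or spike-in scaling 9 of 18 were so, and the median of all probes was then -0.19 or -0.23. The median of the list, 0.36, became -0.03 with spike-in scaling, under which only *Mdm2* passed 2-fold. *Ddb1*, the CUL4 adaptor, had 0.02 ± 0.20. *Fbxw11*, the paralog of *Btrc*, was looked up after the *Btrc* values were seen. Its 2 probes had 4 h ratios of 0.68 ± 0.20 and 0.61 ± 0.20 and were positive under each other scaling, beside the *Btrc* pair of 0.51 and -1.49.

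The deubiquitinases (3 genes, 4 probes) stayed within 2-fold with a median of 0.22, which spike-in scaling brought to -0.17. The *Usp7* probes had 4 h ratios of 0.52 ± 0.20, or 0.12 with spike-in scaling, and -0.07 ± 0.21. Under spike-in, median or no scaling, 1 of 9 phosphatase ratios and 1 of 4 deubiquitinase ratios at 4 h dropped past 2-fold. The median of all probes was then -0.23, -0.19 or -0.11, in that order. How many of all probes dropped that far was not counted under these scalings. In the beta-catenin destruction complex, which GSK3 beta serves (4 genes), 3 of 6 probes were well above background on any array. Of these, *Apc* was lower by 2-fold or more at 20 h (-1.15) and 32 h (-1.27). Its 20 h call was lost with spike-in scaling and without scaling. Over all probes, 3.35% were lower by that much at 20 h and 2.59% at 32 h. At 4 h *Apc* had -0.87 ± 0.22 and passed 2-fold under 5 of the 6 other scalings, down to -1.27. *Ctnnb1*, beta-catenin itself, had 0.40 ± 0.20 at 4 h, which was gone with spike-in scaling. The median of the 3 measured probes at 4 h was 0.33, or -0.07 with spike-in scaling and -0.03 with the median. Of the clock proteins that these kinases and ligases act on (8 genes, 10 probes), 8 probes had a ratio at 4 h. Of these, 5 were at least 2-fold higher, against 11.2% of all probes. They were those of *Cry1* (1.52 ± 0.35), *Cry2* (1.26 ± 0.20 and 1.10 ± 0.21), *Nr1d1* (1.09 ± 0.22) and *Arntl* (1.07 ± 0.20), which encodes BMAL1. The median over the 7 measured probes was 1.09. With spike-in scaling 1 of these 5 was still past 2-fold, and all 5 kept their sign under each scaling. At 20 h and 32 h none of these probes was 2-fold from the control.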

How the data were processed

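The authors deposited spot intensities from Agilent Feature Extraction 10.7.3.1, from which the software had subtracted a fitted spatial surface, and a table in which each array's intensities are divided by a single constant. No normalization across arrays had been applied beyond that. The log2 intensity of each probe was averaged over spots without outlier flags, and the 75th percentile of its array was subtracted. A probe was well above background when at least 50% of its spots carried that flag. Where only 1 array of a pair did, the ratio was given as a bound, over the dim signal or the faintest well-above-background signal of that array, whichever was higher. The threshold was 2-fold. The SAM test named in the methods was not run, for lack of replicates.

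The 7 genes, all lists and the motifs were chosen with earlier results of these data known. Named from the lists other than the markers were genes with a probe 2-fold from the control at any time. The gene with the highest control signal in each list and *Fbxw11* were added. Marker genes were named without this rule. Of the 18 probes, 16 carried a RefSeq accession with the same symbol in GRCm38.p6.

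Other scalings were the median, quantile normalization, the 75th percentile of probes detected on all arrays, 8 spike-in probes with and without 1 of them, and none. They moved the median 4 h ratio of all probes by -0.36, -0.19, -0.12, -0.40, -0.40 and -0.28. At 20 h the median scaling moved it by 0.10, the spike-in probes by 0.20 and no scaling by 0.33, and at 32 h the last 2 moved it by 0.15 and 0.18. Python 3.11.15 with pandas 2.3.3, and limma 3.58.1 in R 4.3.3 for normexp (offset 50), were used, and the steps were tested on simulated data.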

Additional observations from a re-analysis of the deposited data

Results flagged for a closer look

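With the main scaling, on 2 probes the 4 h and a later ratio lay on opposite sides of the control, each by more than its spot error. For *Btrc* A_55_P2004026 the 4 h ratio was 0.51 and the 20 h ratio -0.54, 1.05 apart, though under 5 of the 6 other scalings the 4 h ratio was within its error (down to 0.11 with the spike-in controls). For *Csnk1d* A_52_P477369 the 4 h ratio of 0.68 was 0.92 above the 20 h ratio of -0.23 and 0.90 above the 32 h ratio of -0.21. The *Csnk1d* ratio at 20 h was within its error under 4 of the 6 other scalings (-0.13 with the median, -0.03 with the spike-in controls and 0.10 without scaling), and so was that at 32 h. All these ratios share the control array, and the differences between times were not tested.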

How the results depend on the processing

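Of 572 recomputed log2 ratios of single probes, 481 moved by no more than their spot error, and no ratio past 2-fold changed sign. The ratios that moved further were 75 of 198 at 4 h, 16 of 187 at 20 h and 0 of 187 at 32 h. The median 4 h ratio of the 17 probes, 0.39, was 0.031 with median scaling, 0.18 with quantile normalization, -0.0072 with the spike-in controls, -0.0048 without 1 of these and 0.11 without scaling. The 20 h median became 0.35 without scaling. The number of probes at least 2-fold lower at 4 h was 2 in place of 1 under each of the 6 other scalings and with the deposited table, where *Gsk3b* A_66_P104190 joined the *Btrc* probe, 2 at a 1.5-fold threshold and 0 at 3-fold. The number at least 2-fold higher, 3, was 5 at 1.5-fold and 1 when each gene was counted by its brightest probe. Genes with probes apart at 4 h numbered 3 at 2-fold, 5 at 1.5-fold, 2 at 3-fold and 2 at 2-fold with normexp, alternatives chosen after the data were seen. No probe passed 2-fold at 20 h or 32 h under any of the alternatives that kept this threshold. No paired analysis was possible because each condition had 1 array. In the control the lowest level well above background was -4.76. The dim probes of *Csnk1e* (A_66_P117366) and *Btrc* (A_55_P2004026) were there at -4.24 and -3.60, and that of *Csnk2a2* (A_66_P117655) lay lower, at -5.48. At 4 h these 3 probes were at -2.31, -3.09 and -3.26, and the lowest such level was -4.94. The *Csnk2a2* bound of 1.495 on the log2 scale was 0.78 with normexp and 2.21 with the flag for positive and significant signals.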
